A study of Homo sapiens with 3 samples.

Results

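Broad H3K27ac peaks at gene ends were 267 of the 48621 H3K27ac peaks on chromosomes 1 to 22 and X in PMA-treated THP1 cells, or 0.549% of them. H3K27ac is acetylation of lysine 27 of histone H3, and the peaks are intervals in which immunoprecipitated chromatin fragments piled up above background. The 267 were chosen by their width of at least 5000 bp and by the position of their summit, the point of highest signal, within 1 kb of either end of an hg38 protein-coding gene record. They were set beside 3 other classes of the same list, which were 10422 narrower peaks at gene ends, 558 peaks of at least 5000 bp with their summit inside a gene away from its ends, and 356 such wide peaks between genes. Because width and summit position chose the members, every H3K27ac value of theirs is given as a description with no test.

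The study used chromatin immunoprecipitation and sequencing in THP1, a human monocytic leukaemia line, with wild-type cells treated for 24 h with the phorbol ester PMA. Its 3 samples, all from cells treated in this way, were 1 library for H3K27ac, 1 for the NAD-dependent deacetylase SIRT1 and 1 input without antibody, whose signal was not analysed here. No untreated cells were analysed, so nothing below is a response to PMA, and a single cell line with 1 library per antibody gives no replicate check. Intervals below are exact 95% binomial or Poisson intervals that cover counting error only.

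H3K27ac marks active promoters and enhancers, and at most active genes it flanks the transcription start over a short stretch. Broad stretches of the mark over gene starts are known from many cell types, where they tend to lie at genes of cell identity and of signalling. PMA activates protein kinase C and drives THP1 cells to adhere and to take on features of macrophages.

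The promoter windows of 7 genes and 3 microRNAs are shown first because the results return to these genes. Each promoter runs from 250 bases before to 50 bases after the gene start (RefSeq, GRCh38.p14), is written along the gene's strand, and has 1 match to a searched motif in capitals. ITGA5 encodes integrin alpha 5 of the fibronectin receptor and had the widest of the broad peaks at the start of a single gene of known strand (chr12:54419217-54419516, minus strand, AP-1 letters in capitals). MMP14 encodes a membrane-bound matrix metalloproteinase (chr14:22836335-22836634, plus strand, CCAAT box). IL1B encodes the cytokine interleukin-1 beta (chr2:112836730-112837029, minus strand, CCAAT box). CD68 encodes a lysosomal glycoprotein used as a macrophage marker (chr17:7579388-7579687, plus strand, AP-1). DUSP6 encodes a phosphatase that inactivates the kinase ERK (chr12:89352452-89352751, minus strand, CCAAT box). NFKBIA encodes the NF-kB inhibitor I-kappa-B alpha (chr14:35404700-35404999, minus strand, TATA box). FOSL2 encodes an AP-1 subunit (chr2:28392608-28392907, plus strand, AP-1).
ITGA5: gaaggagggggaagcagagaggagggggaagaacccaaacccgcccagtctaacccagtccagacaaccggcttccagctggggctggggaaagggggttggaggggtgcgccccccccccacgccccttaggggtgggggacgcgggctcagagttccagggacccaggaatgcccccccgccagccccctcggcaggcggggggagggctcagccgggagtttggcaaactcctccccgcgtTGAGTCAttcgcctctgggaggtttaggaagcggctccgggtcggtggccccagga
MMP14: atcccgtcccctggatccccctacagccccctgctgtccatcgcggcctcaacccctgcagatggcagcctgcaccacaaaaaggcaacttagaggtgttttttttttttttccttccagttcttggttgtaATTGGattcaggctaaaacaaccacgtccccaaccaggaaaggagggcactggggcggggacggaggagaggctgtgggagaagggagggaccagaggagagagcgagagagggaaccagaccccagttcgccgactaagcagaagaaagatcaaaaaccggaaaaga
IL1B: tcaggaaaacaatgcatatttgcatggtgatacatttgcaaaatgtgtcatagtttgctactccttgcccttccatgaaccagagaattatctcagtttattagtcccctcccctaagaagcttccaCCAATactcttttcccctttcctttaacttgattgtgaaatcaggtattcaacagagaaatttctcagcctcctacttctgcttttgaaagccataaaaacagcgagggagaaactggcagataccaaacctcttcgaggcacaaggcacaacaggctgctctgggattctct
CD68: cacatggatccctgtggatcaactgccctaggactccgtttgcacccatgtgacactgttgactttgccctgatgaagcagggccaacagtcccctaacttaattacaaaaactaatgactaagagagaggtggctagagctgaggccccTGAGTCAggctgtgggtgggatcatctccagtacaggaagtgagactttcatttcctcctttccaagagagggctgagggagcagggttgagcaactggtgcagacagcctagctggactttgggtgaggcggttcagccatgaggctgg
DUSP6: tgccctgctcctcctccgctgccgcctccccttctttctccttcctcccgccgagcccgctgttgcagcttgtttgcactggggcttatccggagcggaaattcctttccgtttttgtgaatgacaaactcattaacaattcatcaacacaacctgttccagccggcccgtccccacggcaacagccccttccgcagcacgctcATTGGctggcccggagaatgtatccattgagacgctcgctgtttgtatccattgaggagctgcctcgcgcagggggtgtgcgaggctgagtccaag
NFKBIA: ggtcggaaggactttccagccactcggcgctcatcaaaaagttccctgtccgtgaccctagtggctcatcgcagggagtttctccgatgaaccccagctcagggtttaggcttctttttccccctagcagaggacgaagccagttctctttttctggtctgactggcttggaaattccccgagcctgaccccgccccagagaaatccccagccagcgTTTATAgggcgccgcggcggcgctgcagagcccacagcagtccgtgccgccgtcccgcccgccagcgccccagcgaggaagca
FOSL2: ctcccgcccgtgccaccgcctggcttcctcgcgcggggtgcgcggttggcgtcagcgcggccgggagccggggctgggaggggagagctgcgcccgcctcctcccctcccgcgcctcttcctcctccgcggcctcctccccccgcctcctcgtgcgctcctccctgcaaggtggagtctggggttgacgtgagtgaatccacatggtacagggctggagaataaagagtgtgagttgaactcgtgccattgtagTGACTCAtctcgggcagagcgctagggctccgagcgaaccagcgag

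Of 1558 microRNA hairpins matched by position, 19 lay in 16 of the broad peaks and 183 in any H3K27ac peak. MIR191 and MIR425 lay 1203 bp and 1675 bp from the summit of the peak at DALRD3, which spanned 5689 bp with a fold of 51.9. MIR196B lay 3145 bp from the summit of the peak at HOXA9, a homeobox gene of blood progenitors, which spanned 7182 bp with a fold of 28.7. Mature sequences are from RefSeq, with the seed, bases 2 to 8, in capitals. No seed is shared by the 3.
hsa-miR-191-5p: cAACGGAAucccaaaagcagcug
hsa-miR-425-3p: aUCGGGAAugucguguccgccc
hsa-miR-196b-5p: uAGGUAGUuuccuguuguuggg

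The broad peaks were wide, high and deep beside the other peaks at gene ends. Their median width was 6537 bp (interquartile range 5589 to 8053 bp, range 5001 to 22640 bp), against 1194 bp in narrower peaks at gene ends. The fold at the summit, the authors' ratio of signal to local background, had a median of 55.8 in broad peaks (interquartile range 36.5 to 75.3), against 14.1 in narrower peaks at gene ends. Wide peaks away from gene ends were as wide but lower, with median folds of 37.5 inside genes and 40.4 between genes. The fragments piled up at the summit, recovered from the fold and its p-value, had a median of 194 in broad peaks (range 42 to 2595), against 45 in narrower ones, 104 in wide peaks inside genes and 114 in wide peaks between genes. The smallest −log10 q of a broad peak was 50.4, far from the limit of 1.3 in the list.

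Spearman's rho between width and fold was 0.192 over the 267 broad peaks and 0.782 over the 10422 narrower ones, a description across peaks of 1 library that share its depth. It was 0.314 over wide peaks inside genes and 0.336 over those between genes, and the limit of 5000 bp restricts the range of width in all 3 wide classes. Of the 20 highest peaks at gene ends by fold, 10 were broad, as were 37 of the highest 100, beside 2.5% of all 10689 peaks at gene ends. The broad peaks covered 2.03 Mb, or 3.5% of all sequence under H3K27ac peaks. The plot of fold by width shows both clouds.

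**Figure D1:**
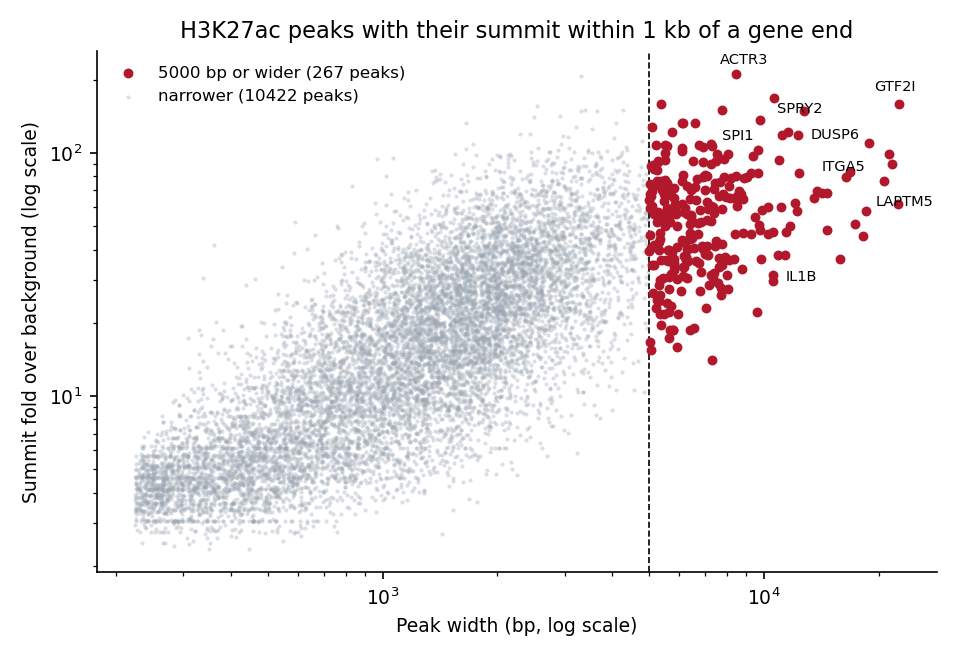
Summit fold (vertical, log scale) against width in bp (horizontal, log scale) of every H3K27ac peak whose summit lay within 1 kb of a protein-coding gene end, with 267 broad peaks in red, 10422 narrower ones in grey and the 5000 bp limit dashed. Fold climbs with width among the narrower peaks, while the broad peaks spread from 14.1 to 210 in fold over widths of 5001 to 22640 bp.

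Wide peaks were not particular to gene ends. Gene ends held 267 of the 1181 peaks of at least 5000 bp, or 22.6%, and 22% of all peaks. The share at gene ends depended on width with a maximum at middle widths. It was 10.7% of peaks under 500 bp, 39% of peaks from 2000 to 3000 bp (95% interval 37.5 to 40.5%), 23.2% from 5000 to 7500 bp (20.3 to 26.3%) and 21.8% at 10000 bp or more (15.8 to 28.9%). Among peaks of at least 10000 bp, 36 of 165 had their summit at a gene end.

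The limit of 5000 bp cut through a continuous range. Just inside it were DAZAP2 with 5001 bp and a fold of 63.9, ZNF865 with 5004 bp and 39.3, and SPAG7 with 5030 bp and 59.4. Just outside it were S100A2, an S100 calcium-binding protein gene, with 4999 bp and a fold of 106, F8A1 with 4997 bp and 46.5, and MAD2L1BP with 4996 bp and 63. S100A2 had the highest fold of these 6 peaks and ZNF865 the lowest.

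The widest broad peak, 22640 bp with a fold of 159, lay at GTF2I, the gene of transcription factor TFII-I (chromosome 7, 74638989 to 74661628). GTF2I has near-identical partial copies nearby, and how reads shared with them were counted is not given in the sources used here. The second, 22433 bp with a fold of 61.5, covered starts on chromosome 19 (49907896 to 49930328) of ATF5, a stress-response transcription factor, IL4I1, a secreted amino acid oxidase of myeloid cells, and NUP62, a nuclear pore protein. The ITGA5 peak spanned 21734 bp (chromosome 12, 54411794 to 54433527) with a fold of 89.5. The 3 widest peaks thus lay at a general transcription factor, at a block of shared promoters and at an adhesion receptor.

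The rest of the 15 widest lay at genes of varied function. ATG7, the activating enzyme of autophagy conjugation, had 21276 bp and a fold of 99.1, and LAPTM5, a lysosomal membrane protein of blood cells, had 20641 bp and 76.9. MMP14, whose promoter is printed above, had 18916 bp and a fold of 110. SH3BGRL3, a small thioredoxin-like protein gene, followed with 18513 bp. PEDS1, the desaturase of plasmalogen synthesis, had 18231 bp, and INAVA, an adaptor of innate immune signalling, had 17296 bp. The kinase gene STK10 had 16878 bp and a shared peak at COL7A1 and UCN2, which encode collagen VII and a urocortin hormone, had 16395 bp. PTGER4, the prostaglandin E2 receptor EP4, had 15877 bp and PHLDA1, an early-response gene, had 14197 bp. The folds of these peaks, from 36.5 at PTGER4 to 159 at GTF2I, did not follow their order in width.

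Both other peaks of the 15 widest touched the stop end of the gene that placed them among the members. The peak at KCNN4, a calcium-activated potassium channel gene, had 14677 bp and a fold of 48.1 and lay at the gene's stop end, while a second broad peak of 9268 bp and a fold of 82.4 lay at its start. The peak of 14640 bp and a fold of 68.3 on chromosome 5 (150047402 to 150062041) was a member through the stop end of HMGXB3. It also covered the stop end of CSF1R, the receptor of macrophage colony-stimulating factor, with its summit 1036 bp from that end, just past the 1 kb limit.

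By fold, the broad peaks were led by ACTR3, the Arp3 subunit of the actin-nucleating complex, with 210 and a width of 8465 bp (chromosome 2, 113884720 to 113893184). ZMYND8, a reader of acetylated histones, had a fold of 168 and GTF2I 159. HNRNPU, a nuclear RNA-binding protein, had 158 over 5369 bp, a width near the limit. SIRPA, the myeloid receptor for CD47, had 150, and the peak shared by AP3D1 and DOT1L, a vesicle adaptor subunit and the histone H3 lysine 79 methyltransferase, had 148. The rest of the 10 highest were SPRY2, a Sprouty inhibitor of receptor kinase signalling, with 137, IFNGR2, a chain of the interferon gamma receptor, with 133, GYPC, a membrane skeleton glycoprotein, with 132, and QKI, an RNA-binding protein, with 132. Of these 10, only GTF2I was among the 15 widest. At the other extreme AHNAK had the lowest fold, 14.1, over 7298 bp.

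The 267 peaks touched 302 of 19974 protein-coding genes, or 1.51%, while 10616 genes, 53.1%, had an H3K27ac summit of any width at an end. A single gene was touched by 231 of the peaks, 33 touched 2 genes and 3 touched 3. Strand was known for 15813 of the genes, and of the 221 broad peaks at a gene with known strand, 202 lay at a start, or 91.4% (95% interval 86.9 to 94.7%). Narrower peaks did so in 91.1% (90.5 to 91.7%), so the share at starts did not differ beyond counting error. Only a stop end was touched by 19 broad peaks, and 46 had no gene with known strand. Peaks over 2 or more starts were 6.74% of broad and 10.2% of narrower peaks.

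KCNN4, PLEKHO1, NDUFS8 and SLC43A3 had a broad peak at each end. At NDUFS8, which encodes a subunit of respiratory complex I, the peak at the start had a fold of 36.2 and the peak at the stop end had a fold of 93.9. At PLEKHO1, a pleckstrin-homology protein gene, those folds were 33.9 at the start and 58.9 at the stop end. In both genes the higher peak was the one at the stop end, whereas at KCNN4 it was the one at the start.

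The broad peaks reached further into the gene than ahead of it. Over 173 broad peaks at the start of a single gene, the median reach into the gene was 4539 bp and the median reach ahead of the start 1880 bp, against 871 and 434 bp in 6379 narrower peaks. The longer arm lay on the gene side in 126 broad peaks, 72.8%, and in 75.1% of narrower ones. At least 2 times as much lay inside the gene in 99 broad peaks and ahead of the start in 22. The summit lay a median of 280 bp past the start in broad peaks (interquartile range 182 to 503 bp), against 211 bp in narrower peaks. The rule itself placed the summit near a gene end in both classes and the width past 5000 bp in one.

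Individual broad peaks departed from this in both directions. At ITGA5 14261 bp lay ahead of the start and 7472 bp inside the gene, and at TBL2 9307 bp lay ahead and 3085 bp inside. At ATG7 20170 bp lay inside the gene and 1105 bp ahead, and at LAPTM5 19182 bp inside and 1458 bp ahead. The IL1B peak did not reach the start at all: it ended 11 bp inside the gene, covered 99.8% of the 7029-bp record and ran past the stop end, with its summit 961 bp past the start. At MMP14 17287 bp ran downstream of the start over a gene of 11174 bp, so the whole gene lay under 1 peak.

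**Figure D2:**
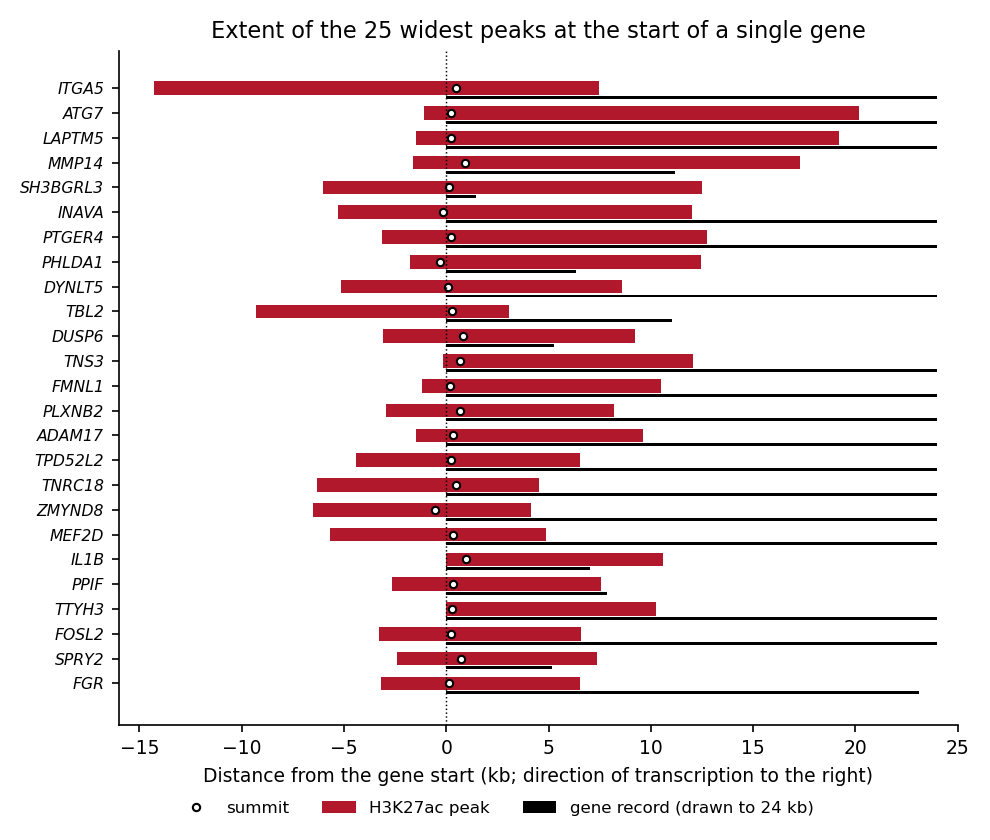
The 25 widest broad peaks at the start of a single gene, drawn as red bars against distance from the start in kb with transcription to the right, white circles for summits and black lines for the gene record (drawn to 24 kb). The summits lie within 1 kb of the start while the bars reach from 14261 bp ahead of it at ITGA5 to 20170 bp inside the gene at ATG7.

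The whole gene was covered in 25 of the 173 broad peaks and in 41 of 6379 narrower peaks. The median share of the gene covered was 25.2% under broad and 2.18% under narrower peaks. Covered genes included MMP14, PHLDA1, DUSP6, SPRY2, CD68 and NFKBIA. Genes with a broad peak were shorter, with a median length of 19.1 kb and 21.5% under 5 kb, against 29 kb and 10.4% for genes with only narrower peaks. Genes without a summit at either end had a median of 18.8 kb and 21.7% under 5 kb. Why the genes with a broad peak were shorter than those with only narrower peaks was not tested.

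The broad peaks seldom stood alone. The gap to the nearest other H3K27ac peak had a median of 550 bp in broad peaks, against 6442 bp in narrower peaks at gene ends, 415 bp in wide peaks inside genes and 419 bp in wide peaks between genes. Another peak lay within 10 kb of 90.3% of broad peaks, against 56.1% of narrower ones. The count of neighbours within 10 kb had a median of 3 around broad peaks and of 1 around narrower ones. Joining peaks within 1 kb of each other gave 528 members in place of 267. In these respects the broad peaks were near the other wide peaks and far from the narrower peaks at gene ends. The summit lay on average near the middle of the interval, at a median of 48% of its width, but within 20% of the width from one edge in 76 peaks, 28.5%.

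Across chromosomes, chromosome 1 held the highest number of broad peaks, 36, followed by chromosome 19 with 31 and chromosome 12 with 20. Per 100 protein-coding genes, chromosome 19 stood highest with 2.14 and chromosome 4 lowest with 0.39, next to chromosome 16 with 0.468. Their share of all peaks at gene ends was 3.65% on chromosome 19 and 0.777% on chromosome 16, although the gene ends of chromosome 16 carried 515 peaks. A long noncoding RNA record had an end at the summit of 49 broad peaks, 18.4%, and of 18.4% of narrower ones. The background rate at 10 broad peaks was over 5 times the lowest rate of the list. It was 41.5 times that rate at MFSD2A and 40 times at CAP1, both in a stretch of chromosome 1 from 39 to 43 Mb, and the high fragment counts of those 2 peaks, 2077 and 2595, go with that background.

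Of the 312 genes in 15 lists for pathways of these cells, 34 had a broad peak at an end, or 10.9%, beside 1.51% of all genes. None of 120 marker genes of 6 other cell types did, and 19 of those 120 had any summit at an end. Of all genes with a summit at an end, 2.84% had a broad peak. At that share and at 1.51% of all genes, 19 and 120 genes are too few to set their lack of broad peaks apart. The lists were not tested against other genes, and any summit was present at 256 of the 312 genes. The rule counted only a summit near an end, and 20 more listed genes had an end covered by a wide peak whose summit lay further away.

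Regulators of myeloid identity held the highest share, 7 of 24 genes, with any summit at 17. KLF6, a zinc finger factor induced in activated macrophages, had 7676 bp and a fold of 75.8. CEBPB, a C/EBP factor of inflammatory macrophages, had 7477 bp and a fold of 92.2 with the summit at its stop end. SPI1, which encodes PU.1, the factor on which the myeloid lineage depends, had 7271 bp and a fold of 109. Without a broad peak but highest in fold were EGR1, an early zinc finger factor, with 4145 bp and 38.4, and IRF1, an interferon regulatory factor, with 1875 bp and 28.2. The 3 with the widest peaks stood above both in fold, but CEBPA, the C/EBP factor of early myeloid differentiation, had a fold of 22.9 over 7054 bp. ZEB2, a zinc finger factor of monocytes, had a wide peak of 13936 bp and a fold of 145 over an end, with its summit 3263 bp away.

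In the AP-1 and early-response list 5 of 22 genes had a broad peak and 15 any summit. FOSL2 led with 9870 bp and a fold of 58.4, followed by BTG1, an antiproliferative gene, with 8487 bp and 64.1, and IER2, an early-response gene, with 7270 bp and 52.6. JUND and FOS, both AP-1 subunits, had folds of 77.1 and 57.8 over 4813 and 3484 bp. JUNB, another AP-1 subunit, had a peak of 12794 bp and a fold of 81.5 over an end, but its summit lay 1873 bp away. JUND thus had a higher fold than each of the 3 broad peaks named, in a narrower peak.

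The list of MAPK feedback, protein kinase C and RGS genes had 5 of 21 with a broad peak and 18 with any summit. DUSP6 had 12295 bp and a fold of 118, SPRY2 9785 bp and 137, and DUSP7, another ERK phosphatase, 6625 bp and 35.9. All 3 restrain the ERK pathway. The kinase PRKCD, a target of PMA, had a fold of 103 over 4380 bp, and SPRED2, a further ERK pathway inhibitor, 32.6 over 3277 bp. PRKCD thus fell short of the width limit with a fold near that of DUSP6.

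Among NF-kB subunits and feedback inhibitors 3 of 20 had a broad peak and 16 any summit. IKBKE, an NF-kB and interferon pathway kinase, had 8458 bp and a fold of 80.4, NFKBIA 6183 bp and 57, and TRAF3, a signalling adaptor, 5514 bp and 93.7. The subunit genes RELB and NFKB1 had folds of 93.9 and 74.4 over 964 and 3308 bp. The RELB summit thus had the fold of TRAF3 in a far narrower peak.

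Cytokines and receptors, the genes that the cell secretes or displays, had 1 broad peak in each list by the summit rule. Of 20 cytokine and chemokine genes IL1B alone had a broad peak, of 10568 bp and a fold of 31.4, and 15 had any summit. TGFB1 had a fold of 36.2 over 4337 bp and the chemokine gene CXCL2 29.5 over 2100 bp. Of 20 macrophage receptor and marker genes CD68 alone had a broad peak, of 7774 bp and a fold of 42, and 9 had any summit at an end, or 45%, below the 53.1% of all genes. The pattern-recognition receptor TLR2 had a fold of 30 over 2822 bp and the lipid receptor TREM2 16.2 over 1969 bp. The other 11 had no summit at an end: CD163, MRC1, CD36, FCGR1A, FCGR3A, FCER1G, TYROBP, ITGAX, ITGB2, SIGLEC1 and CD86.

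The macrophage receptor list was the one in which the summit rule mattered most. A peak covered an end of 5 of the 11 genes without a summit there, and a wide peak did so at 5 of the 19 genes without a broad peak by the rule. These 5, chosen after their values were seen, were ITGB2, the common beta chain of leukocyte integrins, with 16834 bp and a fold of 87.8, TYROBP, a signalling chain of myeloid receptors, with 14874 bp and 61.3, CSF1R with 14640 bp and 68.3, ITGAX, an integrin alpha chain, with 8656 bp and 97, and FCER1G, an Fc receptor chain, with 5361 bp and 98.8. Their summits lay between 1036 and 3016 bp from the nearest covered end. A count by summit thus gives 1 gene of this list and a count by covered ends, starts and stops alike, gives 6. At CSF1R the wide peak covered the stop end, and the peak at its start had 1442 bp and a fold of 11.8.

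In the actin list, close to the MAPK and AP-1 lists in share, 6 of 22 genes had a broad peak and 20 any summit. ACTR3 had 8465 bp and a fold of 210, PFN1, the actin monomer binder profilin, 7415 bp and 56.6, and TLN1, which links integrins to actin, 7112 bp and 80.4. ACTR2, the partner of ACTR3 in the Arp2/3 complex, had a fold of 115 over 4055 bp and the coronin gene CORO1C 88.6 over 3249 bp. The Arp2 and Arp3 genes were therefore both among the high peaks, with only Arp3 past the width limit.

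In the lists of lipid and lysosomal genes, broad peaks were fewer. Of 20 cholesterol and lipid genes 3 had one and 19 any summit: NR1H3, the oxysterol receptor LXR alpha, with 11363 bp and a fold of 37.8, PLIN2, a lipid droplet coat protein, with 7366 bp and 59.9, and SREBF1, a regulator of lipid synthesis, with 6700 bp and 46.4. The cholesterol exporter ABCA1 had a fold of 78.4 over 3932 bp and the acyl-CoA synthetase ACSL1 62 over 2671 bp. Of 20 autophagy and lysosome genes all had a summit and 2 a broad peak, ATG7 and the protease gene CTSD with 7984 bp and a fold of 31.3. SQSTM1, a receptor of selective autophagy, had 72.6 over 4187 bp and MAP1LC3B, an autophagosome marker, 50.5 over 2208 bp.

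Lists of basal cell functions held no broad peak, and nearly all of their genes had a summit. At 1.51% of all genes and 2.84% of genes with a summit, lists of 20 are too short to set a count of 0 apart from that share. None of the 20 ribosomal protein genes had a broad peak, and all 20 had a summit with a median fold of 29.9 and a median width of 2152 bp. RPL10 had the highest fold of that list, 56.5, followed by RPS19 with 47.5. None of 19 oxidative phosphorylation genes had a broad peak, with a median width of 1546 bp, and UQCRFS1 and COX4I1, subunits of complexes III and IV, stood highest with folds of 44.7 and 40.9. None of 20 proteasome genes did either, although PSMA7 had a fold of 142 over 2915 bp and PSMA3 48.6 over 1714 bp. PSMA7 thus had a fold above that of SPRY2 in a peak below the width limit.

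Cell cycle and replication genes had no broad peak by the summit rule among 20, with a median width of 775 bp at the 15 with a summit. CDK6, a cell cycle kinase gene, had a wide peak of 10680 bp and a fold of 66.1 over an end, with its summit 3340 bp away. CDKN1B, a cell cycle inhibitor, had a fold of 40.4 over 3384 bp and CCND3, a D cyclin, 29.5 over 856 bp. The 20 sirtuin and NAD genes had no broad peak by that rule either, though a wide peak of 6348 bp and a fold of 38.7 covered an end of NADK. SIRT1 itself had a fold of 50.9 over 2086 bp and SIRT5 36 over 2127 bp. Of 24 chromatin modifier genes only DOT1L had a broad peak by that rule, in the peak shared with AP3D1. A wide peak of 5323 bp and a fold of 36.6 covered an end of HDAC7. The acetyltransferase gene EP300 had a fold of 156 over 2545 bp. Over all 10616 genes with a summit at an end, the median width of the widest peak was 1449 bp, the median fold 17.8 and 2.84% had a broad peak.

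The 19 marked genes of other cell types had modest peaks. In the hepatocyte list SERPINA1 had a fold of 34.1 over 3954 bp and TF 22.3 over 1259 bp. In the B cell list 6 of 20 genes had a summit, with FCRLA at a fold of 25.6 and BTK at 20.1, and the widest peak, of 3344 bp, came closest to the limit after that of SERPINA1. The T and NK cell list had NKG7 with 15 and LCK with 5.07, the erythroid list TFRC with 16.2 and RHD with 6.47, the neuron list TUBB3 with 10.4 and SNAP25 with 4.35, and the epithelial list CLDN7 with 8.71 and MUC1 with 7.67. No listed gene of another cell type thus had a peak that reached the width limit. These lists are too short to set that apart from the share of all genes with a broad peak. They are also not complete, and genes outside them known from such cells had broad peaks. LAT, a T cell signalling adaptor gene, shared one of 5223 bp and a fold of 108 with SPNS1. GYPC, the red cell glycophorin C gene, had one of 6138 bp and a fold of 132.

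**Figure D3:**
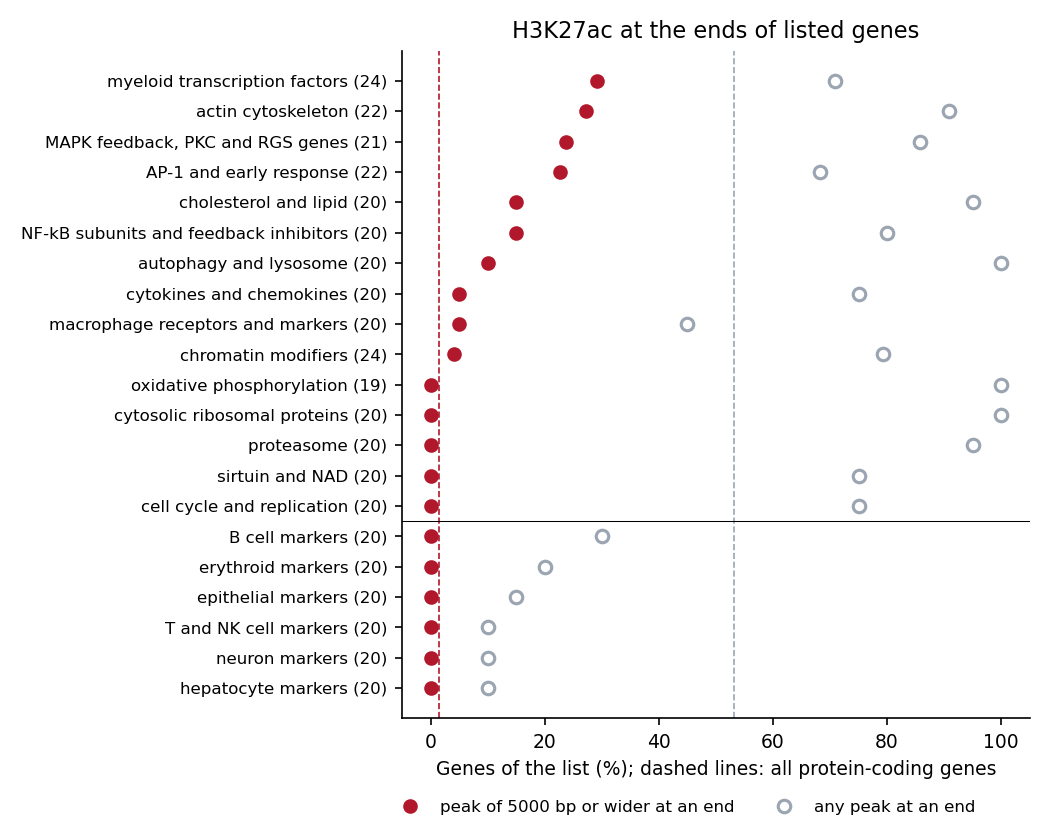
Percent of the genes of each list with a broad H3K27ac peak at an end (red) and with any H3K27ac peak at an end (open grey), with the number of genes in brackets, dashed lines at 1.51% and 53.1% for all protein-coding genes, and other cell types under the black line. Myeloid factors (29.2%) and actin genes (27.3%) hold the highest broad shares. Lists near 100% for any peak differ in broad share, from 0 for ribosomal protein genes to 10% for autophagy and lysosome and 15% for cholesterol and lipid genes.

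Promoter sequence, which the rule did not use, was read for 222 genes whose record start had a broad peak. Here and below a peak counted at a start only with its summit within 1 kb. A start with no peak may therefore still lie under a peak whose summit is further away. The window of a gene can belong to another of its starts, and for 14 of the 222 it did not lie within 1 kb of a broad summit. A window was counted as CpG-rich with GC of at least 50% and a CpG count of at least 0.6 of that expected from its C and G content. This held for 165 of the 222, 74.3% (95% interval 68.1 to 79.9%), against 84.2% (83.4 to 85%) of 8213 windows whose start had only a narrower peak, 39.3% of 7377 with no peak at the start and 63.1% of all 15812. The median CpG ratio was 0.821 at broad and 0.857 at narrower starts, and 0.462 at starts with no summit within 1 kb. Median GC was near equal, 65.5% at broad and 65.3% at narrower starts. With windows classed by their own start, an alternative added after seeing the data, 75.6% of 209 windows at a broad summit were CpG-rich (69.2 to 81.3%), against 85.3% (84.5 to 86%) of 8400 windows at a narrower summit only and 36.8% of 7186 at none, leaving out 17 at other wide peaks. Either way the share at broad starts was below that at narrower starts, and the counting intervals did not meet. Genes that share a start share a window, so the windows are not all independent.

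The printed windows span that range. The CpG ratio was 0.095 at CD68, 0.155 at IL1B, 0.442 at MMP14 and 0.449 at ITGA5, and 0.769 at DUSP6, 0.776 at NFKBIA and 0.82 at FOSL2. The macrophage marker and the cytokine were the poorest in CpG, with 2 CpG sites each in their windows. The window of FOSL2 had 29.

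**Figure D4:**
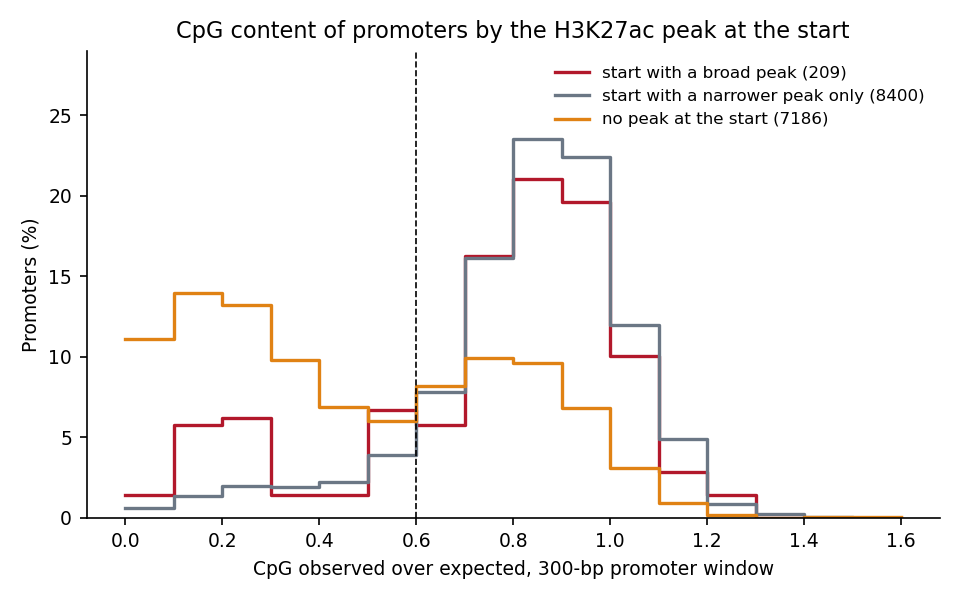
Distribution of the CpG observed-over-expected ratio (horizontal, in steps of 0.1) as percent of promoters (vertical) for 209 windows whose own start had a broad peak (red), 8400 with only a narrower peak (grey) and 7186 with none (orange), with the limit of 0.6 dashed. The broad starts peak with the narrower ones above 0.8 and have a second, smaller hump below 0.4. Peaks were counted by a summit within 1 kb of the start.

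Motif letters were searched on both strands of the same windows, and matches of different motifs may overlap. The AP-1 letters TGANTCA were found in 19 of 222 broad starts, 8.56% (5.23 to 13%), against 4.08% of narrower starts, 7.43% (6.84 to 8.05%) of starts with no peak and 5.7% of all windows. TATAAA was found in 9.01% of broad starts (5.59 to 13.6%), against 5.16% of narrower starts, 14.9% (14.1 to 15.7%) of starts with no peak and 9.75% of all windows. The interval of broad starts lay above that of narrower starts (3.66 to 4.53%) for AP-1 but held the share of starts with no peak. It met that of narrower starts for TATAAA (4.69 to 5.66%) and lay below that of starts with no peak. With windows classed by their own start AP-1 was found in 7.66% of broad starts (4.44 to 12.1%), against 4.01% (3.6 to 4.45%) of narrower starts and 7.64% of those with no peak, so its interval then met both. CCAAT was found in 31.5%, against 36.8% of narrower starts, 36% of starts with no peak and 36.4% of all.

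The ETS and NRF1 motifs were found less often at broad than at narrower starts, though with intervals that met. The ETS letters CCGGAAGT were found in 6.31% of broad starts (3.49 to 10.4%), against 10.7% of narrower starts (10.1 to 11.4%), 1.07% of starts with no peak and 6.17% of all windows, and the NRF1 motif in 8.56% (5.23 to 13%), against 13.4% of narrower starts (12.6 to 14.1%), 3.29% of starts with no peak and 8.6% of all. The PU.1 letters GAGGAAGT were found in 1.8% and the NF-kB letters GGGANTTCC in 2.25% of broad starts, against 2.65% and 2.44% of narrower starts, 2.33% and 1.88% of starts with no peak and 2.49% and 2.18% of all, differences within the intervals. In the printed windows the AP-1 match began 6 bases before the start of ITGA5, 100 before that of CD68 and 5 after that of FOSL2. The CCAAT match began 118 bases before the start of MMP14, 123 before that of IL1B and 46 before that of DUSP6, and the TATA box 33 before that of NFKBIA. A match is a description of letters and not of binding.

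SIRT1, measured in its own library, was scarce inside the broad peaks. A SIRT1 peak overlapped 12 of the 267 by at least 1 base, 4.49% (95% interval 2.34 to 7.72%), against 0.796% of narrower peaks at gene ends, 4.48% of wide peaks inside genes, 3.09% of wide peaks between genes and 1.45% of all H3K27ac peaks. Wide peaks offer more room, and per Mb covered the broad peaks held 5.91 SIRT1 peaks (3.06 to 10.3), against 5.82 (4.65 to 7.2) in narrower peaks at gene ends. Wide peaks inside genes held 6.57 and wide peaks between genes 4.15, all H3K27ac peaks held 12.3 (11.4 to 13.2), and 1-Mb stretches with a peak or a gene held 32.3. Per covered Mb the broad peaks were thus not distinguishable at this depth from the 3 other classes, and they lay below the 1-Mb stretches. By overlap they also lay below all H3K27ac peaks, but an overlap by 1 base counts more SIRT1 peaks per Mb in short intervals. Counted by SIRT1 summit, broad peaks held 5.42 per Mb (2.71 to 9.7) and all H3K27ac peaks 9.34 (8.57 to 10.2), with intervals that met.

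All 12 SIRT1 peaks were weak. The highest SIRT1 folds were 4.22 at CFL1, which encodes the actin-severing protein cofilin, and 4.15 at SUFU, a Hedgehog pathway inhibitor. They rested on 6 and 5 fragments at the summit. Lower folds were found at PTGER4 with a fold of 3.02, F8A3 with 2.94, CD52 and UBXN11 with 2.82, PEDS1 with 2.56 and DAZAP2 with 2.17. Of the 12, 8 rested on 2 or 3 fragments, 9 had a −log10 q of 0 and the highest had 0.614. Their median fold of 2.69 was near the 2.78 of all SIRT1 peaks, and the SIRT1 list itself starts at a −log10 p of 2 and a −log10 q of 0. With only SIRT1 peaks of a fold of at least 4 counted, 0.749% of broad peaks overlapped one. F8A3 has near-identical copies on the X chromosome, among them F8A1, and how shared reads were counted is not given in the sources used here.

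Outside the broad peaks SIRT1 summits became denser with distance. Their density was 5.42 per Mb inside (2.71 to 9.7), 14.1 at 0 to 5 kb, 16.6 at 5 to 10 kb, 19.9 at 10 to 20 kb, 22.4 at 20 to 50 kb and 23.6 at 50 to 100 kb (21.7 to 25.6). Around narrower peaks at gene ends it was 4.18 inside, 26.3 at 5 to 10 kb and 30.9 at 50 to 100 kb (30.3 to 31.5). Outside the peaks the density was lower around broad than around narrower peaks in every band, though at 0 to 5 kb the interval around broad peaks, 9.91 to 19.4, held the 19.1 of narrower ones. Densities around the other wide peaks were also below those around narrower ones. They were 12 at 0 to 5 kb and 25.9 at 50 to 100 kb around wide peaks inside genes. Around those between genes they were 9.85 and 22.7. With other H3K27ac peaks removed from the bands the values around broad peaks were 16.2 at 0 to 5 kb and 25.2 at 50 to 100 kb.

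**Figure D5:**
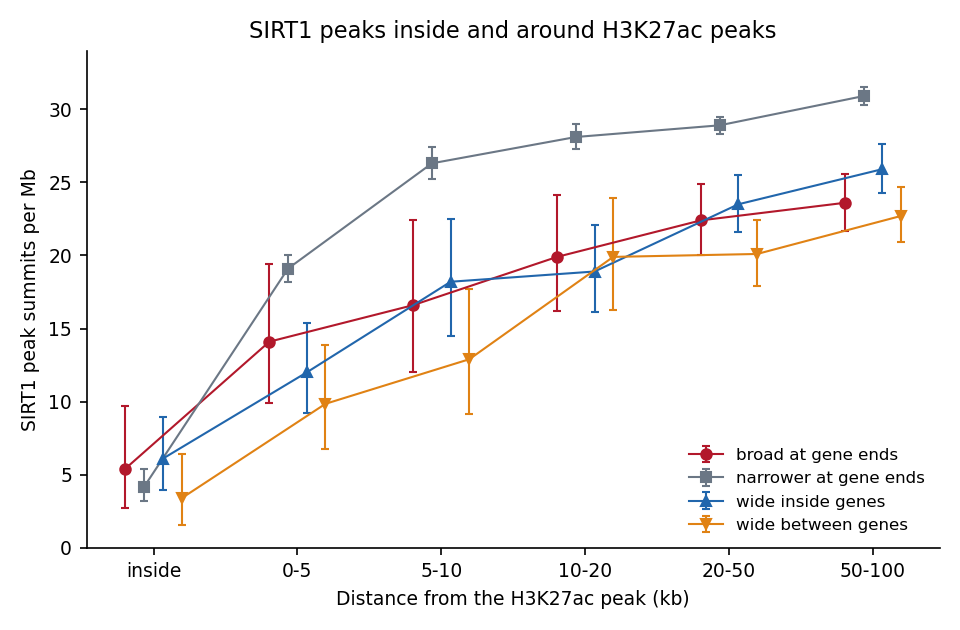
SIRT1 peak summits per Mb (vertical) inside H3K27ac peaks and in bands of distance from their edges in kb (horizontal) for broad peaks at gene ends (red circles), narrower peaks at gene ends (grey squares), wide peaks inside genes (blue triangles) and wide peaks between genes (orange triangles), with exact 95% Poisson intervals as bars. Broad peaks go from 5.42 inside to 23.6 at 50 to 100 kb, and outside the peaks the narrower class lies above the wide ones.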

How the data were processed

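Peak lists were used for the H3K27ac and SIRT1 libraries. MACS2, deepTools and hg38 are named in the submitters' processing notes; the version of each, the aligner, the control and the read totals were not given in the sources used here. The fold at a summit is the authors' ratio to local background. The −log10 p, the −log10 q and the score were deposited by the authors, and the score was not used.

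Gene records were 19974 protein-coding genes of RefSeq GRCh38.p14, 15813 of them with strand from the promoter table. Fragments at a summit were solved as the whole number that gives the deposited fold (1 added to signal and background) and Poisson p, with a tolerance of 0.01 on −log10 p. This worked for 99.9979% of H3K27ac and 100% of SIRT1 peaks and was tested on simulated data. Their medians, 15 and 3, are the depth known.

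Members and gene lists were chosen with earlier results of these data known. Named genes were those at the 15 widest and 10 highest broad peaks, up to 3 per list with the widest broad peak and up to 2 others with the highest fold, those next to the width limit, the 8 with the highest SIRT1 fold, SIRT1 and SPI1. Further genes were named after seeing their values, and a few genes within this rule are not reported here. NDUFA4 was not matched. With 1 library per antibody no test was made. Width, window, end, q, joining, overlap, SIRT1 fold and, after seeing the data, the start that classes a window were varied. Computations ran in Python 3.11.15 with scipy 1.17.1, pandas 2.3.3, numpy 2.4.6 and matplotlib 3.10.9.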

Additional observations from a re-analysis of the deposited data

Results flagged for a closer look

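H3K27ac peaks of at least 5000 bp also appeared outside chromosomes 1 to 22 and X, in the share of the list that no comparison above used. There were 10 of them among 1647 peaks on chromosome Y and on unplaced or alternate contigs, or 0.607%, against 2.43% of peaks on chromosomes 1 to 22 and X. They are listed here because any signal above the limit that a count of 0 allows, a share of 0.182%, counts as data not used above, although their share was below that of the other chromosomes. The widest spanned 8194 bp and the highest fold was 85.2. Whether they lie at gene ends was not tested.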

How the results depend on the processing

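Of 73 values under 12 alternatives, 1 of them chosen after seeing the data, 56 stayed within 1.5 times the reported count or within its 95% interval, and 17 moved. A minimum width of 4000 bp gave 482 peaks at 558 genes with a median width of 5247 bp and a median fold of 49.9, and 6000 bp gave 168 peaks at 192 genes with a median width of 7606 bp. A window of 500 bp gave 200 genes and 20 listed genes, and counting any wide peak over a gene end gave 496 genes and 54 listed genes. Joining peaks within 1 kb gave 528 peaks at 616 genes, a median width of 7064 bp and a median fold of 45.2. The changes in count and width follow from how each alternative is built; for the fold the cause was not tested. With SIRT1 peaks of a fold of at least 4 only, 0.749% of broad peaks overlapped one, at 0.985 per Mb. Starts only, a stricter q, and leaving out chromosome 1 from 39 to 43 Mb moved none of the values computed for them past those bounds. No paired analysis was possible because each antibody had 1 library. A single library, unknown total depth and a peak caller that splits or joins wide stretches limit every width given, and a SIRT1 list resting on a median of 3 fragments limits every overlap.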

Other observations

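Groups outside the lists, picked after their values were seen and so given as values only, also had broad peaks. Genes of the integrated stress response had them: ATF4, its central transcription factor, with 5040 bp and a fold of 74.2, ATF5 with 22433 bp and 61.5, DDIT3, the factor CHOP, with 8380 bp and 46.4, and PPP1R15A, a phosphatase subunit that ends the response, with 5488 bp and 77.6. Small GTPases did as well, among them ARF1, a regulator of vesicle coats, with 9645 bp and a fold of 103, and ARF6 with 6383 bp and 64.8. Neither picked set is complete: ATF3, also a factor of the stress response, had no H3K27ac summit at an end.

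Metabolic genes with a broad peak included ENO1 and GAPDH of glycolysis, with 6923 and 5830 bp and folds of 79.8 and 58.2, and PGD and PGLS of the pentose phosphate pathway, with 6812 and 6665 bp and folds of 57.9 and 78.1. Genes known from acute leukaemia included MEF2D with 10576 bp and 29.6, HOXA9 with 7182 bp and 28.7, LMO2 with 6801 bp and 26.9, RUNX1 with 6244 bp and 37.2 and LYL1 with 5314 bp and 24.5. These 5 folds lay below the median of 55.8 of the broad peaks, while that of DOT1L, also known from acute leukaemia, lay above it at 148. This picked set is not complete: with broad peaks too, ETV6 had a fold of 58.6 and CEBPA 22.9.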
